A study of Rattus norvegicus with 9 samples.

Results

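The renin-angiotensin system and the surface peptidases that trim its hormones were followed through alveolar formation in rat lung fibroblasts, by 8 genes measured among 14217 on the arrays. The 8 genes were the precursor Agt, the receptors Agtr1a and Agtr2, and the peptide-cleaving enzymes Ace, Enpep, Mme, Anpep and Dpp4. They were listed by name, and each was represented by the probe set (the group of array probes that reports a transcript) that was brightest on average over the 9 arrays, among probe sets annotated with that gene alone. Probe sets were thus chosen by their mean level, which for the 5 genes with a second probe set was log2 6.03 against 5.16 for Agtr2, 8.93 against 8.07 for Agtr1a, 6.09 against 5.15 for Ace, 9.52 against 7.37 for Enpep and 6.45 against 4.59 for Dpp4. The genes were also named with earlier results of these data known. Agtr2 was named for its fall through both intervals and Enpep for its fall after day 7. These changes were thus selected on the same arrays and are given as a description without p-values. The other members and the related lists were chosen with those results known too, so their limma p-values are not independent evidence.

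Lung fibroblasts were isolated from rat pups, with no treatment named, on postnatal day 2 (saccular stage, before septation), day 7 (septation in progress) and day 21 (septation ended), with 3 samples per day. A sample came from 1 litter, with cells of 5 pups combined on day 2 and of 4 on days 7 and 21, and was read on its own single-colour Affymetrix array. The 3 litters of a day are different ones, and the labels do not say if litters recur between days. Cells were released with trypsin and collagenase and kept if they stuck to plastic within a short plating, so a sample can hold other adherent cells. The labels give no strain, sex or genotype.

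Angiotensinogen, the product of Agt, is cut by renin and then by angiotensin-converting enzyme (Ace) to angiotensin II. That hormone acts mainly through the type 1 receptor (Agtr1a in rodents, with its close copy Agtr1b), which drives contraction, growth and matrix production, while the type 2 receptor (Agtr2) is best known from fetal tissue and often opposes it. Aminopeptidase A (Enpep) removes the first residue of angiotensin II and aminopeptidase N (Anpep) the next one, neprilysin (Mme) cuts angiotensin I and many other small peptides, and dipeptidyl peptidase IV (Dpp4) removes dipeptides from chemokines and gut hormones. The arrays measured RNA, not receptor number or enzyme activity.

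Levels are log2 of the authors' normalised intensities, and the 3 arrays per day limit the precision of every value. The low end refers to levels under log2 4.25, the 25th percentile over every probe set and array. Array medians were log2 5.24 to 5.66, and the correlation across probe sets was 0.976 to 0.988 for pairs from 1 day. All 10 fibroblast markers were measured and averaged log2 10.53 to 10.81 on day 2, 10.76 to 10.87 on day 7 and 10.18 to 10.59 on day 21. Macrophage markers (15 of 19 measured) were also high, at mean levels of log2 8.73 to 8.95, 7.15 to 7.94 and 9.15 to 9.59 on days 2, 7 and 21.

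The 8 genes followed several kinds of course. By mean level, Agtr1a, Enpep and Mme were highest on day 7 and lowest on day 21, and Agtr2 was lower on each later day. The rise of Mme at day 7 against day 2 did not pass, and those of Agtr1a and Enpep were lost in some alternative fits. Anpep ran the opposite way, lowest on day 7 and highest on day 21, and Ace was highest on day 21. Agt was lowest on day 2 by a change that did not pass, and the days overlapped for Dpp4. Because these are bulk samples, fewer cells of a type and less RNA per cell cannot be told apart in any of the values.

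**Figure D1:**
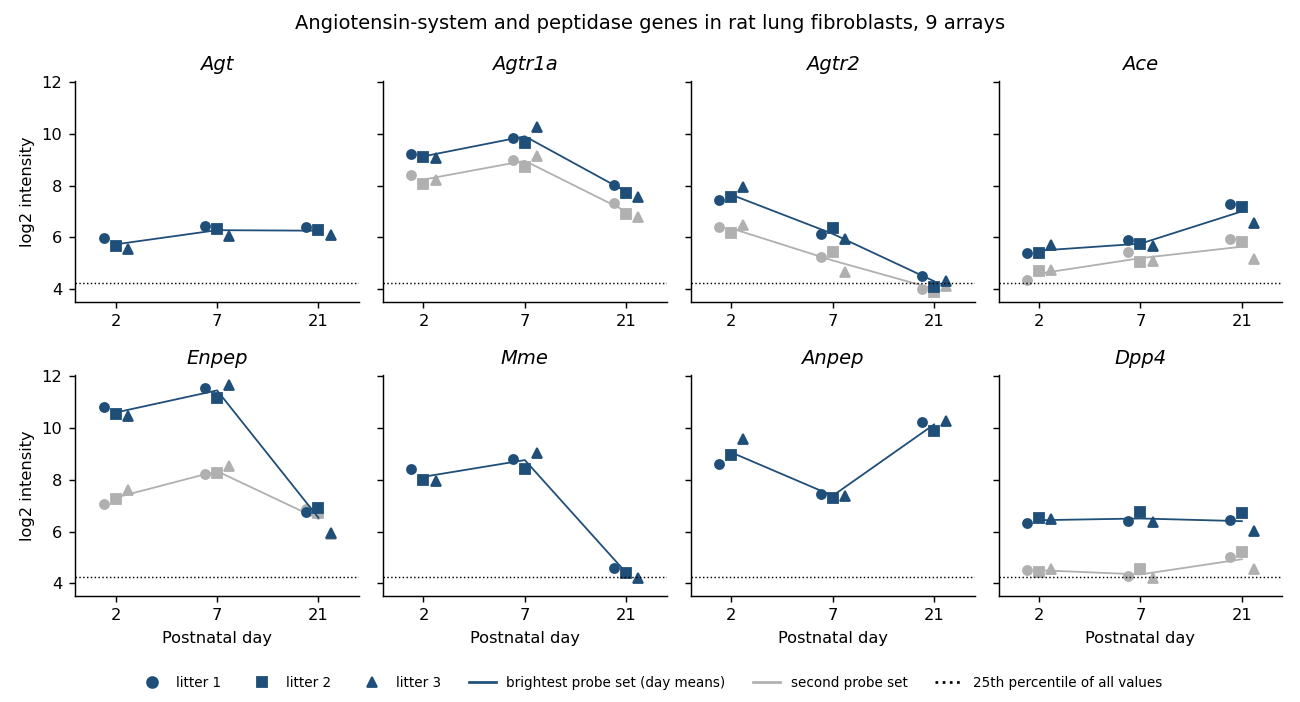
Level of each gene (log2 intensity, vertical axis) on postnatal days 2, 7 and 21, with a symbol for each litter's array and lines through the means of 3 arrays; blue is the brightest probe set, grey the second one and the dotted line the low end, log2 4.25. Enpep and Mme drop between days 7 and 21 to means of log2 6.53 and 4.40, Agtr2 steps down to 4.31, and Anpep dips to 7.38 on day 7.

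Agt, the hormone precursor, was at log2 5.97, 5.66 and 5.57 on day 2 (replicates 1 to 3), 6.46, 6.33 and 6.05 on day 7 and 6.42, 6.28 and 6.08 on day 21. The 3 day 2 arrays were the lowest of the 9, and the later days overlapped each other. Its log2 change was 0.54 ± 0.17 (SE, n = 3 per day) for day 7 against day 2 (limma adjusted p = 0.0776) and 0.53 ± 0.17 for day 21 against day 2 (limma adjusted p = 0.0532), neither of which passed. The difference of day 21 from day 7 was -0.02 with a 95% interval of -0.39 to 0.36. The day 7 change against day 2 passed with the litter number as a replicate block (limma adjusted p = 0.0496) and with probe sets averaged per gene (0.046). Agt has 1 probe set, so averaging leaves its levels as they were and tests fewer features, as does leaving out dim probe sets. The day 21 change against day 2 did pass with the litter number as a replicate block (limma adjusted p = 0.0311), after a further quantile normalization (0.012), with 32 added to the intensities (0.047), without dim probe sets (0.0493), with probe sets averaged per gene (0.0317), without day 2 replicate 1 (0.0422) and without day 7 replicate 3 (0.0408).

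Ace, which makes angiotensin II, was at log2 5.38, 5.38 and 5.71 on day 2, 5.90, 5.73 and 5.65 on day 7, and 7.30, 7.18 and 6.54 on day 21. All day 21 arrays lay above all earlier ones, with replicate 3 the lowest of them, while days 2 and 7 overlapped. Ace rose 2.37-fold at day 21 against day 7 (log2 change 1.24 ± 0.20, limma adjusted p = 0.000579) and 2.86-fold against day 2 (1.52 ± 0.20, limma adjusted p = 0.000414). Day 7 against day 2 did not pass, with a change of 0.27 and a 95% interval of -0.17 to 0.72. The dimmer second probe set of Ace had a smaller step after day 7, with means of log2 4.60 ± 0.21, 5.20 ± 0.22 and 5.64 ± 0.42 (SD, n = 3) on days 2, 7 and 21. There the change of day 21 from day 2 passed (1.04 ± 0.22, limma adjusted p = 0.00622) and that of day 21 from day 7 did not (0.44 ± 0.22, limma adjusted p = 0.158).

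Ace is known as an enzyme of lung endothelium, and endothelial markers moved the other way between days 7 and 21. Of 9 measured, 0 rose and 7 fell at day 21 against day 7, and 1 (Vwf) rose and 3 fell at day 21 against day 2. Vwf had means of log2 5.07, 5.67 and 6.15 on days 2, 7 and 21. The mean level of the 9 was log2 5.65 to 6.15 on day 21, against 6.86 to 7.07 on day 7 and 6.21 to 6.65 on day 2. Their summed intensity was 519 to 700 on day 21, against 1150 to 1390 on day 7 and 736 to 1020 on day 2, and none was at the low end on all arrays. Among 8 smooth muscle and myofibroblast markers, 3 rose at day 21 against day 7 and 0 fell. At day 21 against day 2, 3 of them rose and 1 fell (Des, log2 change -1.01 ± 0.25). Their summed intensities were 5560 to 8020 on day 21, 4840 to 6660 on day 7 and 3620 to 7040 on day 2. Day 21 replicate 3 was lowest of its day for these markers (log2 8.57 against 9.23 and 9.13 for replicates 1 and 2) as it was for Ace. That array was also lowest of its day for fibroblast (10.18 against 10.53 and 10.59), pericyte and mesothelium markers. Agt, Agtr1a, Enpep, Mme and Dpp4 were lowest on it too, so the match is not particular to smooth muscle markers. The part of these cells in the Ace change was not tested.

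The type 1 receptor gene Agtr1a was at log2 9.23, 9.09 and 9.07 on day 2, 9.82, 9.63 and 10.26 on day 7, and 8.01, 7.72 and 7.56 on day 21. The days did not overlap, and day 7 replicate 3 was the highest array. Agtr1a rose 1.71-fold at day 7 against day 2 (log2 change 0.77 ± 0.19, limma adjusted p = 0.0252), a call lost without day 2 replicate 2 (0.0846), day 2 replicate 3 (0.0809), day 7 replicate 1 (0.0576) or day 7 replicate 3 (0.0764), and after median centring of the arrays (0.1). It then fell 4.39-fold at day 21 against day 7 (log2 change -2.13 ± 0.19, limma adjusted p = 7e-06) and was 2.57-fold lower on day 21 than on day 2 (-1.36 ± 0.19, limma adjusted p = 0.000496). The second probe set had similar changes in these comparisons, 0.72, -1.95 and -1.23, and all 3 passed. Whether these probe sets also bind RNA of the close copy Agtr1b was not tested.

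The type 2 receptor gene Agtr2 was at log2 7.45, 7.57 and 7.93 on day 2, 6.14, 6.35 and 5.93 on day 7, and 4.51, 4.10 and 4.32 on day 21. Each day lay wholly below the one before, with gaps between the nearest arrays of 1.10 and 1.42. The level was 2.84-fold lower on day 7 than on day 2 (log2 change -1.51 ± 0.18) and 3.56-fold lower on day 21 than on day 7 (-1.83 ± 0.18), making day 21 10.1-fold lower than day 2. The day 21 mean of 4.31 lay 0.06 above the low end, so the last step ends at the low end. The second Agtr2 probe set had means of log2 6.35, 5.11 and 4.02 on days 2, 7 and 21, the last below the low end, and smaller changes of -1.24 ± 0.20 and -1.10 ± 0.20 over the successive intervals.

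Between days 2 and 7 the receptors thus moved in opposite directions, and both were lower on day 21 than on day 7. The log2 ratio of Agtr2 to Agtr1a was taken on each array, where its size has no meaning because probe sets differ in brightness, so only its change between days is read. On day 21 Agtr2 was at the low end, which bounds that day's ratio, so its change from day 7 cannot be read as a change in balance. It averaged -1.48 ± 0.33, -3.76 ± 0.53 and -3.46 ± 0.19 on days 2, 7 and 21 (SD, n = 3 arrays per day). The mean difference was -2.28 for day 7 against day 2, with no overlap of arrays, and 0.30 for day 21 against day 7, with overlap. No test is given, since Agtr2 was picked for its course.

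Enpep, which starts the breakdown of angiotensin II, was at log2 10.79, 10.54 and 10.45 on day 2, 11.54, 11.15 and 11.65 on day 7, and 6.75, 6.90 and 5.94 on day 21. Day 21 was far below both earlier days and its replicate 3 was lowest. Enpep rose 1.80-fold at day 7 against day 2 (log2 change 0.85 ± 0.24, limma adjusted p = 0.0494). That call was marginal, since leaving out any single array of days 2 and 7 ended it (limma adjusted p = 0.054 to 0.147), as did leaving out day 21 replicate 1 (0.0605), median centring (0.0752) and the litter number as a replicate block (0.0589). After day 7 the level was 30.1-fold lower on day 21 (log2 change -4.91 ± 0.24), and 16.7-fold lower on day 21 than on day 2 (-4.06 ± 0.24). In absolute size of change from day 7 to day 21 by brightest probe sets, 9 of the 14217 genes equalled or passed it, Enpep itself included. Enpep was named for this fall, so the rank describes it and supports nothing further.

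The second Enpep probe set gave the same directions but a much smaller fall. Its levels were log2 7.08, 7.25 and 7.60 on day 2, 8.21, 8.24 and 8.54 on day 7, and 6.85, 6.71 and 5.89 on day 21. It was 3.60-fold lower on day 21 than on day 7 (log2 change -1.85 ± 0.24) and 1.77-fold lower than on day 2 (-0.83 ± 0.24). At day 7 against day 2 it rose 2.03-fold (1.02 ± 0.24, limma adjusted p = 0.0235). Both probe sets therefore read alike in their order of days, and the size of the Enpep fall depends on which is used.

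Mme, the gene of neprilysin, was at log2 8.43, 7.97 and 7.94 on day 2, 8.79, 8.43 and 9.05 on day 7, and 4.58, 4.41 and 4.22 on day 21. It fell 20.5-fold at day 21 against day 7 (log2 change -4.35 ± 0.20, limma adjusted p = 1.2e-07) and 13.1-fold against day 2 (-3.71 ± 0.20, limma adjusted p = 1.47e-06). The day 21 mean of 4.40 was only 0.15 above the low end, so these folds are limited by background. Day 7 and day 2 touched at log2 8.43, and the difference of 0.65 ± 0.20 did not pass (limma adjusted p = 0.0691), although it did without day 2 replicate 1 (0.0413) or day 7 replicate 2 (0.0496) and with probe sets averaged per gene (0.0427), which tests fewer features.

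Agtr1a, Enpep and Mme thus shared 1 order of day means, and on day 7 replicate 3 was the highest array for each of them. That array also had the lowest macrophage level of day 7 (log2 7.15 against 7.74 and 7.94 for replicates 1 and 2) and the highest pericyte level (7.44 against 7.19 and 7.17). The same array was lowest of day 7 for endothelial (6.86 against 7.00 and 7.07) and epithelial markers (5.49 against 6.19 and 6.13). T and NK cell markers were lowest there as well (4.27 against 4.59 and 4.50), so the low level is not particular to macrophages. By mean level, endothelial markers, with the values given beside Ace, were likewise highest on day 7 and lowest on day 21. Among them Vwf had a higher mean on each later day and Esam was highest on day 2. At day 7 against day 2, 2 of the 9 endothelial markers rose and 0 fell. Pericyte markers, of which 8 of 10 were measured, were also highest on day 7, with mean levels that overlapped between day 21 (log2 6.40 to 6.64) and day 2 (6.57 to 6.69). At day 7 against day 2, 3 of the 8 rose and 0 fell, and at day 21 against day 7, 1 rose and 5 fell. Their summed intensity was 1030 to 1320 on day 2, 1980 to 2500 on day 7 and 1010 to 1280 on day 21, and none was at the low end on all arrays. Of the 10 fibroblast markers, 1 rose and 3 fell at day 21 against day 7, with summed intensities of 30400 to 38700 on day 21 and 33900 to 38000 on day 7, while macrophage markers rose as described with Anpep. The part of these cells in the receptor and peptidase changes was not tested.

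**Figure D2:**
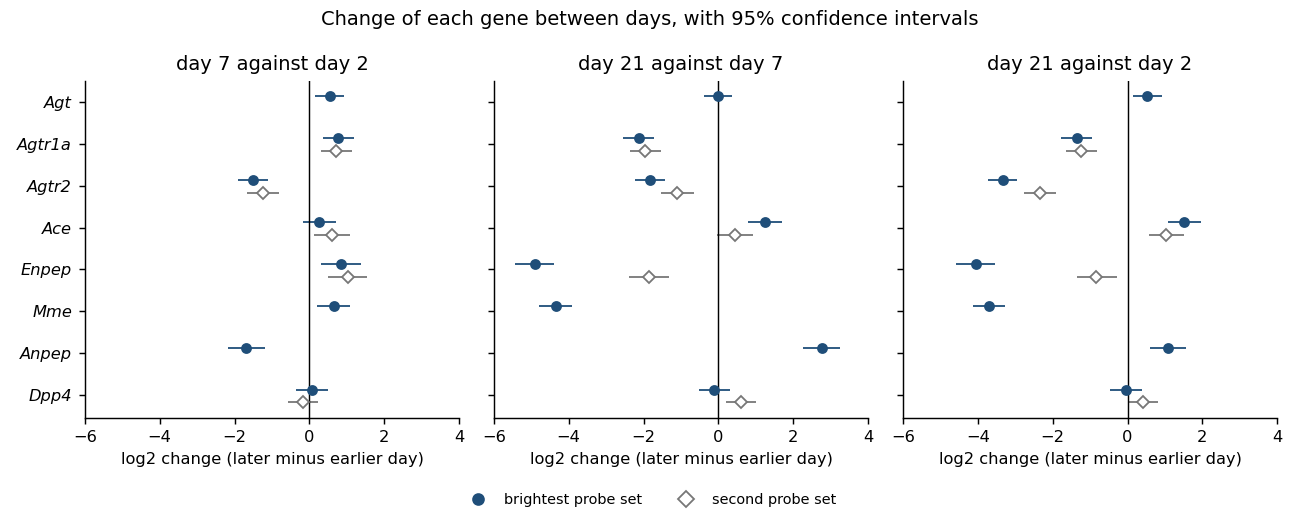
Change of each gene between days (log2, later minus earlier day, horizontal axis) with 95% confidence intervals from limma; filled circles are the brightest probe sets and open diamonds the second ones. The 2 probe sets of Enpep differ most, at -4.91 and -1.85 for day 21 against day 7, while those of Agtr1a lie close together.

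Promoter sequences are shown for the 4 genes called lower at day 21 against day 7, because they moved together at that step. They are the 250 bases before the start used in the RefSeq promoter table on build GRCr8, at chrX:116914070-116914319 (plus strand) for Agtr2, chr17:34435433-34435682 (minus strand) for Agtr1a, chr2:220526219-220526468 (minus strand) for Enpep and chr2:149872247-149872496 (plus strand) for Mme. RefSeq had such a window for 7 of the 8 genes. For Mme and Agtr1a that start lies inside the span RefSeq gives the gene, so the window belongs to the start of 1 transcript and other starts exist upstream of it. Capitals mark matches on either strand to the TATA box (TATAAA), the GC box bound by Sp1 (GGGCGG), the AP-1 motif (TGANTCA) or the CCAAT box (CCAAT), and adjoining matches may overlap.
Agtr2: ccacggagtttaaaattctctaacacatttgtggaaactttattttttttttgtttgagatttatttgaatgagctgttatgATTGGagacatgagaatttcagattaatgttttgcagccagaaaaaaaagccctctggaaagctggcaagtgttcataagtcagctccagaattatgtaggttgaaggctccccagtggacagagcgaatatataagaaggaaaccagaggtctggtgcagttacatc
Agtr1a: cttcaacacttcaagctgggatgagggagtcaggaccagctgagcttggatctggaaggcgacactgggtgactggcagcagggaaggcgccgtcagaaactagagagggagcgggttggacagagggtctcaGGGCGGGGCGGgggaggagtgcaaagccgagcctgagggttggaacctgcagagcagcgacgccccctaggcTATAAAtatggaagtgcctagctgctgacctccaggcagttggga
Enpep: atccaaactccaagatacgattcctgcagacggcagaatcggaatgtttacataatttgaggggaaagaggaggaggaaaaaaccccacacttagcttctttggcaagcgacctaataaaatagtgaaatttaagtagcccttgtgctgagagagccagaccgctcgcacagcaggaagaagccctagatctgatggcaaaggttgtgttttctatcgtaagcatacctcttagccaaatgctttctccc
Mme: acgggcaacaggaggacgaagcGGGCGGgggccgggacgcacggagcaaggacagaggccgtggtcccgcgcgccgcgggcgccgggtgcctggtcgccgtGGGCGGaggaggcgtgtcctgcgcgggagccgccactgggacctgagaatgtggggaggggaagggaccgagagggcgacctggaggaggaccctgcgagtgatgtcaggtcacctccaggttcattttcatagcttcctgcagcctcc

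These 4 windows shared no marked motif. Agtr1a held a TATAAA beginning 45 bases before the start and a pair of overlapping GGGCGG, Mme held GGGCGG at 228 and 149 bases before the start, Agtr2 held only a CCAAT on the reverse strand and Enpep held none of the 4. Over the 7 windows, TATAAA was found in 2, GGGCGG in 3, CCAAT in 2 and TGANTCA in 0. The shares of all 33469 rat promoter windows of this length were 12.9%, 30.5%, 34.0% and 6.34% in that order. The share of G and C was 38% in Agtr2 and 45.2% in Enpep, but 60.8% in Agtr1a and 70.4% in Mme, around a median of 51.2% over all windows. A match is a description of the letters and not a site of binding.

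Anpep, the aminopeptidase that acts after Enpep, was at log2 8.62, 8.95 and 9.59 on day 2, 7.46, 7.31 and 7.37 on day 7, and 10.23, 9.89 and 10.28 on day 21. The days did not overlap, and day 2 was the most uneven (SD 0.50, against 0.08 on day 7 and 0.22 on day 21). Anpep fell 3.20-fold at day 7 against day 2 (log2 change -1.68 ± 0.23, limma adjusted p = 0.00173). It rose 6.76-fold at day 21 against day 7 (2.76 ± 0.23, limma adjusted p = 4.12e-06) and stood 2.11-fold above day 2 (1.08 ± 0.23, limma adjusted p = 0.00626).

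Aminopeptidase N is also a surface protein of myeloid cells, and macrophage markers were likewise lowest on day 7 and highest on day 21 by mean level. At day 7 against day 2, 8 of 15 fell and 0 rose, and at day 21 against day 7, 14 rose and 0 fell. At day 21 against day 2, where Anpep was higher, 4 of these markers rose, 0 fell and 11 did not pass. Their summed intensity was 16700 to 18700 on day 2, 6610 to 10000 on day 7 and 19300 to 25900 on day 21, and none was at the low end on all arrays. Within days 2 and 21 the replicates had the same order by Anpep as by mean macrophage level, which was log2 8.73, 8.92 and 8.95 on day 2 and 9.30, 9.15 and 9.59 on day 21. Within day 7 they did not, since replicate 3 had the lowest macrophage level and an Anpep level of 7.37, between those of the other arrays. An order of 3 arrays can agree or differ by chance, and Anpep spanned only log2 7.31 to 7.46 on day 7. The part of macrophages in the Anpep change was not tested.

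Dpp4 was at log2 6.31, 6.51 and 6.49 on day 2, 6.39, 6.74 and 6.38 on day 7, and 6.44, 6.73 and 6.03 on day 21. The days overlapped in every pair and no change passed. The 95% intervals of its log2 change were -0.35 to 0.49 for day 7 against day 2, -0.52 to 0.31 for day 21 against day 7 and -0.46 to 0.38 for day 21 against day 2. Its second probe set, near the low end at means of log2 4.51, 4.34 and 4.93 on days 2, 7 and 21, rose 1.5-fold at day 21 against day 7 (log2 change 0.59 ± 0.18, limma adjusted p = 0.0285). Markers of T and NK cells, on which this enzyme is also found, rose in that comparison for 5 of 11 measured (Cd4, Cd2, Lck, Cd5 and Zap70). Cd3e, Cd3d and Cd3g did not pass (log2 changes of 0.10, 0.16 and -0.21). The summed intensities of the list were 450 to 459 on day 21 and 235 to 311 on day 7. In the same comparison 14 of 15 macrophage markers also rose, and Cd4 (1.73) and Cd2 (1.03) had the largest log2 changes of the T and NK cell list. Cd3e, Cd3d and Cd5 of this list were below the low end on all 9 arrays, so the rise of Cd5 lies under it. The part of these cells in the value was not tested.

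**Figure D3:**
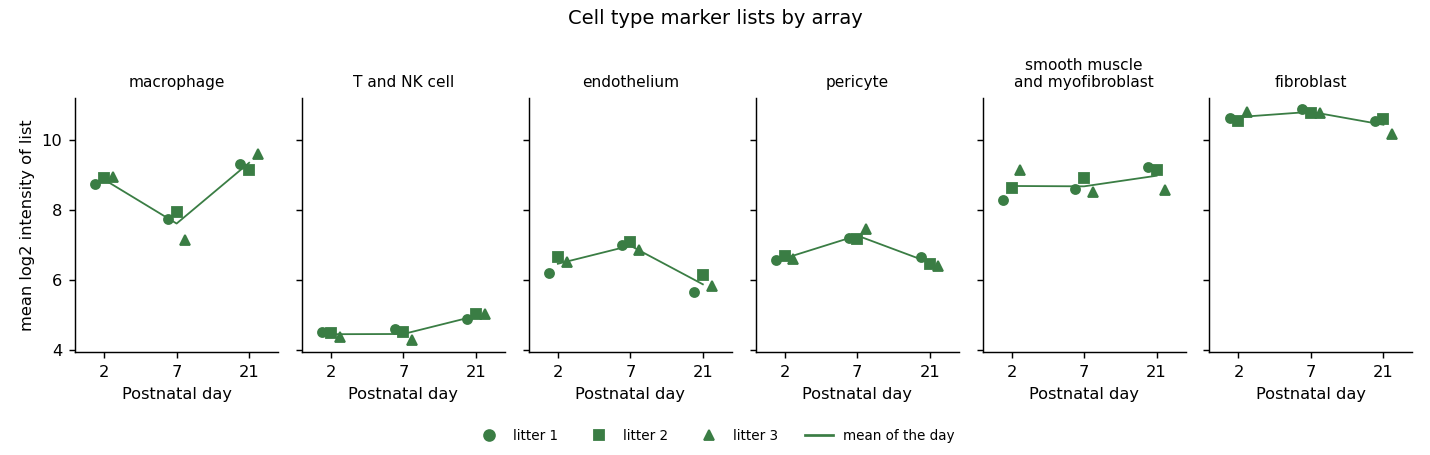
Mean log2 intensity of 6 cell type marker lists (vertical axis) on postnatal days 2, 7 and 21, with a symbol for each litter's array and lines through the day means. Macrophage markers dip on day 7 (7.15 to 7.94), pericyte markers peak there (7.17 to 7.44) and endothelial markers are lowest on day 21 (5.65 to 6.15).

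Counted by limma calls (Benjamini-Hochberg adjusted p under 0.05 over all 31042 probe sets), 2 of the 8 genes were higher and 2 lower at day 7 against day 2, where 7.02% and 4.41% of all genes were called. In the later interval, day 21 against day 7, 2 were higher and 4 lower, with 13.7% and 24.4% of all genes called. Over the whole period, day 21 against day 2, 2 were higher and 4 lower, with 8.8% and 15.3% of all genes called. Arrays of the compared days did not overlap for 6, 6 and 7 of the 8 genes in those comparisons, as was so for 33.0%, 51.2% and 43.0% of all genes. The 6 at day 7 against day 2 include Mme, whose gap rounded to 0.0 on the log2 scale. The median log2 change of the 8 was 0.40, -0.97 and -0.70, beside 0.07, -0.01 and 0.02 over all genes. Since the genes were named with results known, these counts describe them and support nothing further.

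Genes with the course most like each member were sought among 6382 genes whose arrays spanned at least 1 on the log2 scale, by Pearson correlation over the 9 arrays. The points fall into 3 days, so a high value mostly means the same order and spacing of day means. Enpep was closest to Gria3, Zfp423 and Col13a1 (r = 0.997 each) and Mme to Heph (0.998), Gria3 (0.997) and Col13a1 (0.996). Agtr1a was closest to Ncald, Etv4 and Schip1 (0.994 each) and Agtr2 to Sass6 (0.97), Sncaip (0.968) and Capn6 (0.968). Anpep was closest to Ggta1 (0.993), Bcat1 (0.989) and Syk (0.988), and Ace to Cyb561 (0.991), Lmod1 (0.982) and Scel (0.98). Agt was closest to Ccdc180 (0.957), Prcd (0.951) and Fos (0.921). For Dpp4 the best values were only 0.88 (Tspan8), 0.848 (Cgnl1) and 0.798 (Atp10d). Col13a1, for example, averaged log2 8.87, 9.92 and 4.79 on days 2, 7 and 21.

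Of 11 other measured genes of the renin-angiotensin system, 1 rose and 2 fell at day 7 against day 2 (median log2 change -0.19), 4 rose and 2 fell at day 21 against day 7 (median 0.05), and 1 rose and 0 fell at day 21 against day 2 (median 0.09). Agtr1b, the second type 1 receptor gene of rodents, rose by 1.08 ± 0.18 at day 7 against day 2 (limma adjusted p = 0.00431), with means of log2 4.26 on day 7 and 3.18 on day 2, at or below the low end. It fell by 0.99 ± 0.18 at day 21 against day 7 (limma adjusted p = 0.00113). Atp6ap2, the prorenin receptor, fell at day 7 against day 2 (log2 change -0.68 ± 0.14) and rose at day 21 against day 7 (1.00 ± 0.14). So did Prcp, a carboxypeptidase that cuts angiotensins (-0.91 ± 0.25 and 1.09 ± 0.25). Agtrap, a protein that promotes type 1 receptor internalisation, rose at day 21 against day 7 (1.09 ± 0.23). Cma1, a chymase of mast cells, rose 9.43-fold at day 21 against day 7 (log2 change 3.24 ± 0.48, limma adjusted p = 0.000263), with means of log2 6.34 on day 21 and 3.10 on day 7, where it lay below the low end. Mast cell and granulocyte markers rose with it for 6 of 9 measured, with summed intensities of 856 to 2920 on day 21 and 297 to 466 on day 7. On day 2 that sum was 1330 to 3620, with S100a8 and S100a9 of the list at log2 8.89 and 10.25. Cma1 was at log2 3.29 on day 2, so the sum, which includes these granulocyte genes, did not follow Cma1 over the days. The mast cell genes Cpa3, Mcpt10 and Tpsb2 of the list averaged log2 4.90, 3.09 and 4.50 on day 2. They averaged 4.40, 3.00 and 4.56 on day 7 and 8.78, 7.53 and 6.71 on day 21, with Mcpt10 below the low end before day 21. Tpsab1, Ms4a2 and Kit were also highest on day 21 by mean. The part of these cells was not tested. Mas1, a receptor for the product of angiotensin trimming, was at log2 4.64 on day 21, 4.64 on day 7 and 4.58 on day 2, and no change passed.

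Among 26 genes of angiotensin receptor signalling, 3 rose and 0 fell at day 7 against day 2 (median log2 change 0.14). Nox4, an oxidase that makes reactive oxygen, rose by 1.17 ± 0.20, Itpr1, a calcium release channel, by 0.75 ± 0.20, and Rgs4, which shortens G protein signals, by 0.63 ± 0.18. At day 21 against day 7, 2 rose and 4 fell (median -0.08). Rgs3 (-2.12 ± 0.23), Nox4 (-1.97 ± 0.20, to a mean of log2 3.53 that is below the low end) and Rgs5 (2.0-fold lower) fell, and the phosphatase gene Ptpn6, mainly of blood cells, rose (1.99 ± 0.27) along with the macrophage markers. At day 21 against day 2, 3 rose and 3 fell (median 0.03), and Rgs3 had the largest fall (-1.64 ± 0.23).

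Other vasoactive peptides and their receptors (27 measured) had 1 rise and 1 fall at day 7 against day 2 (median 0.07), those of the chemokine Cxcl12, a Dpp4 substrate (0.82 ± 0.19), and of the bradykinin receptor Bdkrb2 (-1.11 ± 0.26). At day 21 against day 7, 8 rose and 4 fell (median 0.20), and at day 21 against day 2, 5 rose and 2 fell (median 0.26). Bdkrb2 rose by 1.61 ± 0.26 at day 21 against day 7, and its mean was lowest on day 7, as that of Anpep was. Ramp3, a partner of adrenomedullin receptors, rose by 2.98 ± 0.28 (means of log2 6.75 on day 21 and 3.77 on day 7, below the low end) and Ramp2, another partner, fell by 1.61 ± 0.22 in the same comparison. Tac1, the gene of substance P, rose by 1.38 ± 0.23, with means of log2 5.11 on day 21 and 3.72 on day 7, below the low end.

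Among 40 other peptidases, 1 rose and 0 fell at day 7 against day 2 (median 0.11), 5 rose and 7 fell at day 21 against day 7 (median 0.08), and 4 rose and 6 fell at day 21 against day 2 (median 0.10). Phex, a surface endopeptidase related to neprilysin, fell most, 8.77-fold at day 21 against day 7 (log2 change -3.13 ± 0.26, limma adjusted p = 4.2e-06) and 7.11-fold against day 2 (-2.83 ± 0.26). The carboxypeptidase gene Cpm (-1.69 ± 0.24) and the hydrolase gene Blmh (-1.39 ± 0.15) also fell at day 21 against day 7, and the prohormone carboxypeptidase gene Cpe rose (1.43 ± 0.30). Ece1, which makes endothelin and is also related to neprilysin, rose at day 21 against day 2 (1.15 ± 0.31).

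**Figure D4:**
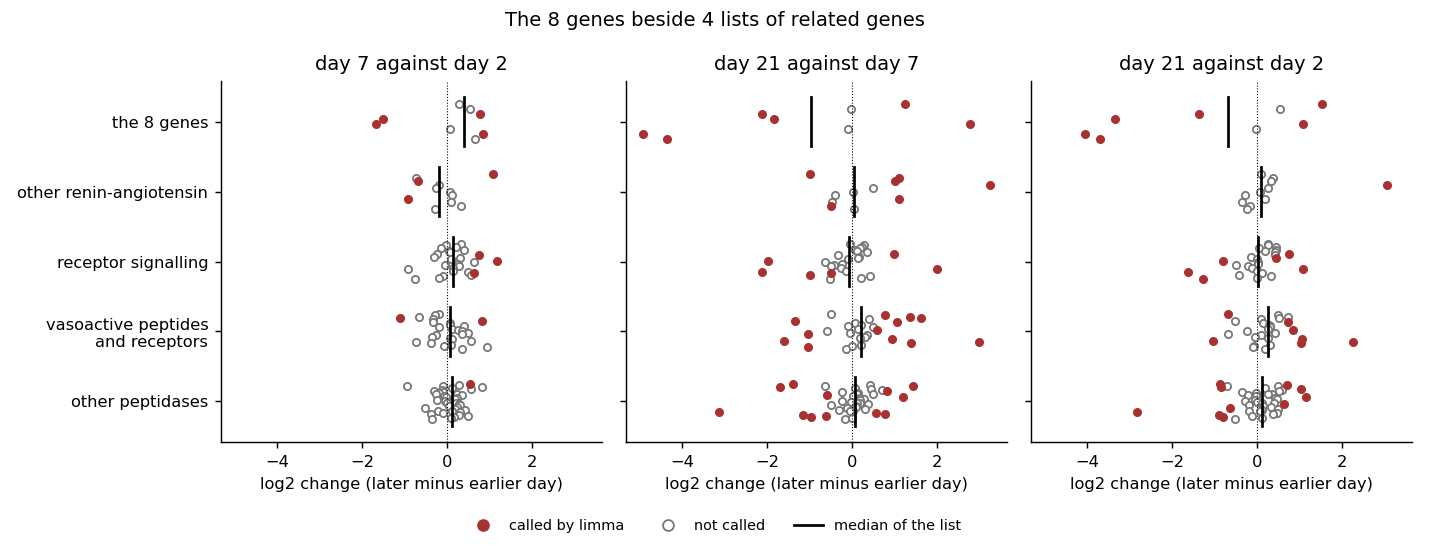
Log2 change (later minus earlier day, horizontal axis) of each gene among the 8 and in 4 related lists; filled points passed limma's test, open points did not, and bars are list medians. At day 21 against day 7 the median is -0.97 for the 8 genes and -0.08 to 0.20 for the 4 lists, and single genes spread widely in each, for example -4.91 to 2.76 among the 8, -3.13 for Phex and 3.24 for Cma1.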

How the data were processed

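Total RNA of 9 pooled samples was labelled and hybridised to 1 Affymetrix array each, per the labels' protocols. The submitters' processing notes name affy and RMA, without versions, as the tools by which the authors made the deposited probe set intensity values. They are on a linear scale, so log2 was taken. RMA compresses changes of dim probe sets.

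Of 31099 probe sets, 57 controls were left out and 31042 were tested, of which 20826 had 1 gene symbol in the platform annotation. A linear model with a mean per day and no covariate was fitted by limma 3.58.1 (R 4.3.3), with moderated variances, with Benjamini-Hochberg adjustment over all probe sets within a comparison. Litters differ within a day, so p-values measure spread between litters. Errors are SEs from limma unless marked SD. The procedure was tested on simulated data. The 3 comparisons share samples.

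The 8 genes and all lists were chosen with earlier results of these data known. Up to 4 called genes with the largest change per list and comparison were named (further values were chosen after they were seen: Agtr1b's fall, Mas1), and 3 most similar genes per member. Promoter windows came from RefSeq (GRCr8). Alternatives were 2 further normalizations, an offset of 32, a filter on dim probe sets, litter number as a block, fits on the compared days, another variance model, gene means and leaving out each array. Sequences of array probes were not analysed here.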

Additional observations from a re-analysis of the deposited data

How the results depend on the processing

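Over 17 alternatives per comparison, 15 of the 24 member changes (8 genes in 3 comparisons) stayed on the same side of the threshold with the same direction in all of them, and the other 9 are those of Agt and Dpp4 in each comparison and of Agtr1a, Enpep and Mme at day 7 against day 2. Leaving out each array in turn gave 0 to 2 genes called higher at day 7 against day 2, against 2 with all arrays. The count was 0 with each array centred on its median and 4 with a gene's probe sets averaged, which also tests fewer features. Dpp4 reversed under median centring (-0.031 at day 7 against day 2 and 0.004 at day 21 against day 7), further quantile normalization (0.086 at day 21 against day 7 and 0.088 against day 2) and averaged probe sets (-0.05, 0.24 and 0.19 at day 7 against day 2, day 21 against day 7 and day 21 against day 2). Agt reversed at day 21 against day 7 under median centring (0.095) and quantile normalization (0.146). Without single arrays Agt ranged from -0.13 to 0.074 at day 21 against day 7, and Dpp4 from -0.05 to 0.13, -0.27 to 0.079 and -0.20 to 0.145 at day 7 against day 2, day 21 against day 7 and day 21 against day 2. None of these passed the test, and the cause was not tested. Median centring moved all changes by 0.11 at day 21 against day 7, and by 0.10 downward at day 7 against day 2.

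The litter number as a replicate block left 2 genes called higher and 2 lower at day 7 against day 2, with Enpep lost (limma adjusted p = 0.0589) and Agt gained (0.0496). At day 21 against day 2 it called 3 higher, with Agt gained (0.0311). Same-numbered arrays of different days deviated together at r over 0.1 in 2 of 9 pairs (-0.237 to 0.405), so the number was not taken as a pairing, and whether litters recur between days is unknown.

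Over all probe sets, 902 were higher and 1272 lower at day 7 against day 2 under median centring, against 1707 and 1068 as deposited, and 41.5% of calls were higher against 61.5%. At day 21 against day 7 the share was 48% under centring and 48.5% after quantile normalization, against 36.6%, and at day 21 against day 2 it was 47.3% after quantile normalization (3397 higher), against 36% (2118 higher). Averaging probe sets gave 2225 higher and 3500 lower at day 21 against day 7 and 2295 lower at day 21 against day 2, where fewer features are tested. Leaving out single arrays gave 850 to 1814 higher and 673 to 1155 lower at day 7 against day 2, and 1186 to 2565 higher at day 21 against day 2. Signal over background limits the day 21 values of Agtr2 and Mme.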
